A study of Mus musculus with 6 samples.

Results

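The 10 genes described here (Pomc, Agrp, Cartpt, Trh, Ghrh, Avp, Oxt, Hcrt, Pmch and Gal) encode the precursors of peptides that neurons of the hypothalamus release. They were picked by gene symbol from a table of 53801 genes, and each symbol matched 1 gene. RNA-seq had been performed on polyadenylated RNA from whole brains of C57BL/6 mouse embryos at E16.5, obtained by mating heterozygous parents. The 3 Bahd1-KO embryos were Bahd1-/- and the 3 Bahd1-WT embryos Bahd1+/+, and the comparison asked whether loss of BAHD1, a scaffold of repressive chromatin complexes, changed gene expression in the embryonic brain. No Cre, transgene or treatment was named for either genotype, and which embryos shared a litter was not stated. The p-values therefore measure the spread between these embryos.

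Neuropeptides are made as long precursors, cut at pairs of basic residues by prohormone convertases, packed into dense-core granules and released to act on G protein-coupled receptors. In the hypothalamus each precursor belongs to a small set of neurons. The arcuate nucleus holds Pomc neurons, which restrain feeding, Agrp neurons, which promote it, and the Ghrh neurons that drive growth hormone release. The paraventricular and supraoptic nuclei make vasopressin (Avp) and oxytocin (Oxt), and the paraventricular nucleus makes the thyrotropin-releasing hormone (Trh) that controls the pituitary-thyroid axis. The lateral hypothalamus holds neurons for melanin-concentrating hormone (Pmch) and for the orexins (Hcrt). Cartpt and Gal are expressed in several hypothalamic nuclei and also outside the hypothalamus, as is Trh.

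The sequences of Avp and Oxt are shown because the genes are near-identical in part, which limits how short reads can be assigned to them. Both lie on chromosome 2 (GRCm38), Oxt at chr2:130576173-130577054 on the forward strand and Avp at chr2:130580620-130582554 on the reverse strand, with 3565 bases between their facing 3′ ends. Bahd1 lies on the same chromosome, 11.7 Mb away from both. The 27 coding bases of each hormone, in exon 1, are given 5′ to 3′ with capitals at the 5 positions where the genes differ. Avp is at chr2:130582446-130582472 and Oxt at chr2:130576267-130576293.
Avp: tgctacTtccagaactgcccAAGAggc
Oxt: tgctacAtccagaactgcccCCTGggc
Further on, across the junction of exons 1 and 2 in the part that encodes the neurophysin carrier protein, both transcripts hold 1 identical run of 127 bases.
Avp and Oxt: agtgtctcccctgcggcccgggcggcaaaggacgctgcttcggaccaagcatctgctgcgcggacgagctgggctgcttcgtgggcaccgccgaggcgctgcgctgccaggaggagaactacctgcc
Of all windows of 65 bases, the length of the reads, 12.3% in Avp and 13.3% in Oxt were identical in the other gene, and a read from them cannot be assigned to either. No other of the 10 genes shared such a window with a gene at another position. Windows shared at the same position came from overlap, of Pmch with Parpbp and of Agrp with Ctcf and Gm5914.

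Trh is shown as an example of a precursor built from repeats. Its coding sequence (chromosome 6, reverse strand, exon 3) held 5 units that encode Gln-His-Pro-Gly, the template of the tripeptide, each between pairs of codons for basic residues. The capitals mark the template codons, 5′ to 3′.
Unit 1 (chr6:92243088-92243111): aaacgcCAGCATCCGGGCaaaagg
Unit 2 (chr6:92242992-92243015): aaacgaCAGCACCCTGGCcgacgt
Unit 3 (chr6:92242857-92242880): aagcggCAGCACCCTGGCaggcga
Unit 4 (chr6:92242803-92242826): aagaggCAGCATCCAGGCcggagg
Unit 5 (chr6:92242710-92242733): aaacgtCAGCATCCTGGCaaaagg
The template codons of units 2 and 3 were the same bases, and no 2 whole units were. Over the whole coding sequence Trh held 12 codon pairs for basic residues, Pomc 9, Cartpt 5, Agrp and Gal 4 each, Hcrt 3, Ghrh, Oxt and Pmch 2 each, and Avp 1.

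Libraries held between 61724000 and 91782802 counts. Bahd1 itself had 2, 10 and 6 counts in the Bahd1-KO brains, with 1971, 3102 and 3470 in the Bahd1-WT brains (log2 fold change -8.40, SE 0.606, adjusted p 0.0462, edgeR), as the genotypes say. Bahd1-KO replicate 3 stood apart from all other embryos. Protein-coding genes took 53.5% of its counts, against 97.8 to 98.4% in the other 5 embryos. Ribosomal, mitochondrial and small RNA genes took 49.8% of its counts, against 3.12 to 6.28% in the others. The study also named this embryo as possibly an outlier and repeated its comparison without it. Its summed level of 8 lung markers was 1520 CPM against 0.763 to 12.8 in the others, that of 13 mature brain markers 1889 CPM against 180 to 318, and that of 12 pan-neuronal markers 2745 CPM against 9244 to 11347. The pan-neuronal markers did not all move alike. In this embryo Tubb3 stood at 2.49% and Gap43 at 7.78% of the mean of the other 5, but Syt1 at 102% and Snap25 at 434%. CPM are counts per 1000000 counts of a library whose size was scaled by TMM (trimmed mean of M-values). The other 5 embryos were not alike in these lists either. The lung marker Scgb1a1 had 511 counts in Bahd1-KO replicate 2, against 4 to 15 in Bahd1-KO replicate 1 and the Bahd1-WT embryos. The mature brain marker Mobp had 1573 counts in Bahd1-WT replicate 1 and 17 to 23 in the other Bahd1-WT embryos. Because Bahd1-KO replicate 3 stood furthest apart, fold changes and list medians below are also given without it.

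Counts were found for all 10 genes. In bulk tissue, fewer cells of a type and less RNA per cell cannot be told apart. Summed over the 6 embryos, Pmch had 1460 counts, Trh 1439, Gal 669, Cartpt 425, Avp 375, Ghrh 212 and Pomc 135. Agrp and Hcrt had 22 counts each and Oxt 12. All 10 passed the minimum of 10 counts in sum, 4 of them (Trh, Pmch, Gal and Cartpt) with at least 10 counts in each embryo. Per length of exon, the levels in Bahd1-WT ran in the order Pmch, Trh, Avp, Gal, Ghrh, Cartpt, Pomc, Hcrt, Agrp and Oxt. Pmch was at 3.77 ± 0.810 CPM per kb, Trh at 2.16 ± 0.119, Avp at 1.55 ± 0.642 and Gal at 1.55 ± 0.0846 (SD, n = 3). Ghrh stood at 0.740 ± 0.239 CPM per kb, Cartpt at 0.629 ± 0.0933 and Pomc at 0.265 ± 0.137 (SD, n = 3), and the last 3 genes lay at 0.0460 to 0.0543. The steps from Pmch to Trh, from Gal to Ghrh and from Cartpt to Pomc were free of overlap between the Bahd1-WT embryos, while the neighbours Trh and Avp, Avp and Gal, Ghrh and Cartpt, and the last 4 genes overlapped. In Bahd1-KO the order was the same, except that Gal stood above Avp and Cartpt above Ghrh.

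**Figure D1:**
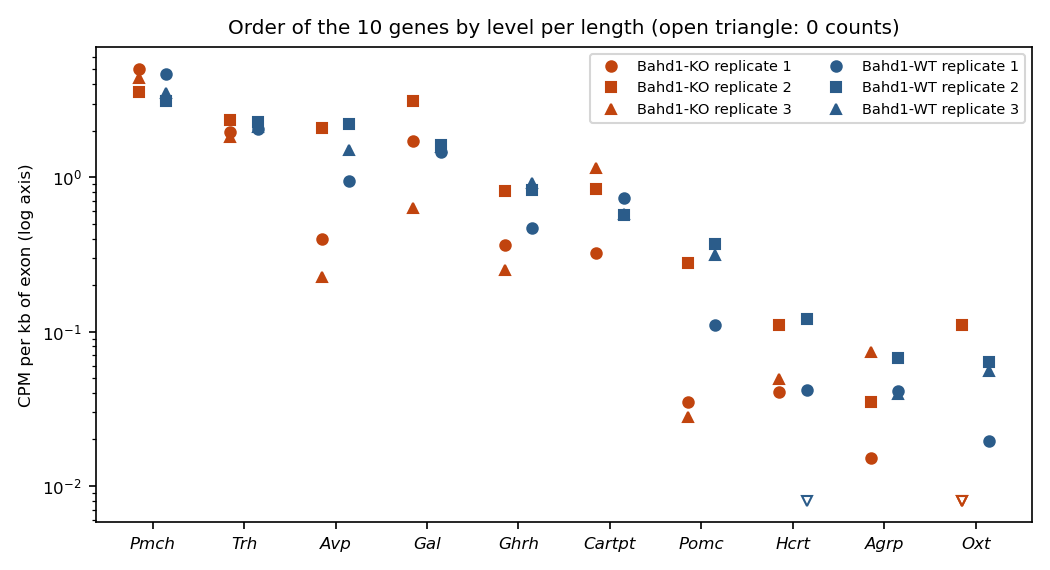
Level of each gene per kb of exon (CPM with TMM factors per kb, log axis) in the 3 Bahd1-KO embryos (orange) and the 3 Bahd1-WT embryos (blue), with a marker shape for each replicate number and open triangles for 0 counts, where the Oxt triangle stands for 2 embryos. Pmch and Trh are highest with little spread, and Hcrt, Agrp and Oxt lie lowest. Among the 7 genes with at least 50 counts in sum, Avp and Pomc spread most.

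None of the 10 genes passed the test for a difference between the genotypes, and the precision differed widely among them. An approximate 95% interval of the log2 fold change (Bahd1-KO over Bahd1-WT, edgeR) was taken from the SE and the normal distribution. It was -0.72 to 0.57 for Trh and -0.50 to 0.90 for Pmch, but -2.44 to 0.90 for Avp and -3.07 to 0.71 for Pomc. With 3 embryos per genotype the normal distribution makes these intervals too narrow. In the quasi-likelihood test of edgeR on all genes, 0 of the 10 passed an adjusted p of 0.05, where 0.00404% of all 24739 genes tested did (1 gene, Bahd1). The adjusted p-values of the 10 ran from 0.703 to 0.973, and 0 had an unadjusted p under 0.05, against 4.67% of all genes. DESeq2 called 0 of the 10 as well (adjusted p 0.771 to 0.977; background 0.0323%). With voom of limma and embryo quality weights it was also 0 of 10 (background 0.0243%), with 1 gene, Pomc, at an unadjusted p under 0.05 (0.0394). The genotypes overlapped for all 10 genes, where they did not overlap for 6.71% of all genes. Bahd1-KO replicate 3 was the lowest embryo for 5 of the 7 better counted genes, as it was for 35.7% of all genes, and Bahd1-KO replicate 1 was the lowest of the other 5 embryos for 5 of the 7, as it was for 32.4% of all genes. By sign, 6 of the 10 log2 fold changes were below 0, against 46.2% of all genes, and the median was -0.11, against 0.06 for all genes. Both values include Agrp and Oxt, below 0, and Hcrt, above it, whose counts were too few for a fold change. Without Bahd1-KO replicate 3, 0 of the 10 passed (adjusted p 0.981 to 0.996, edgeR; background 0.0171%), 0 had an unadjusted p under 0.05 (background 1.48%) and DESeq2 called 0 (background 0.0471%). Again 6 were below 0 (background 50.8%), with a median of -0.06. Genotypes then did not overlap for 2 of the 10 (background 10.7%), Agrp, lower in both Bahd1-KO embryos (background 4.35%), and Gal, higher in both (background 6.33%).

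**Figure D2:**
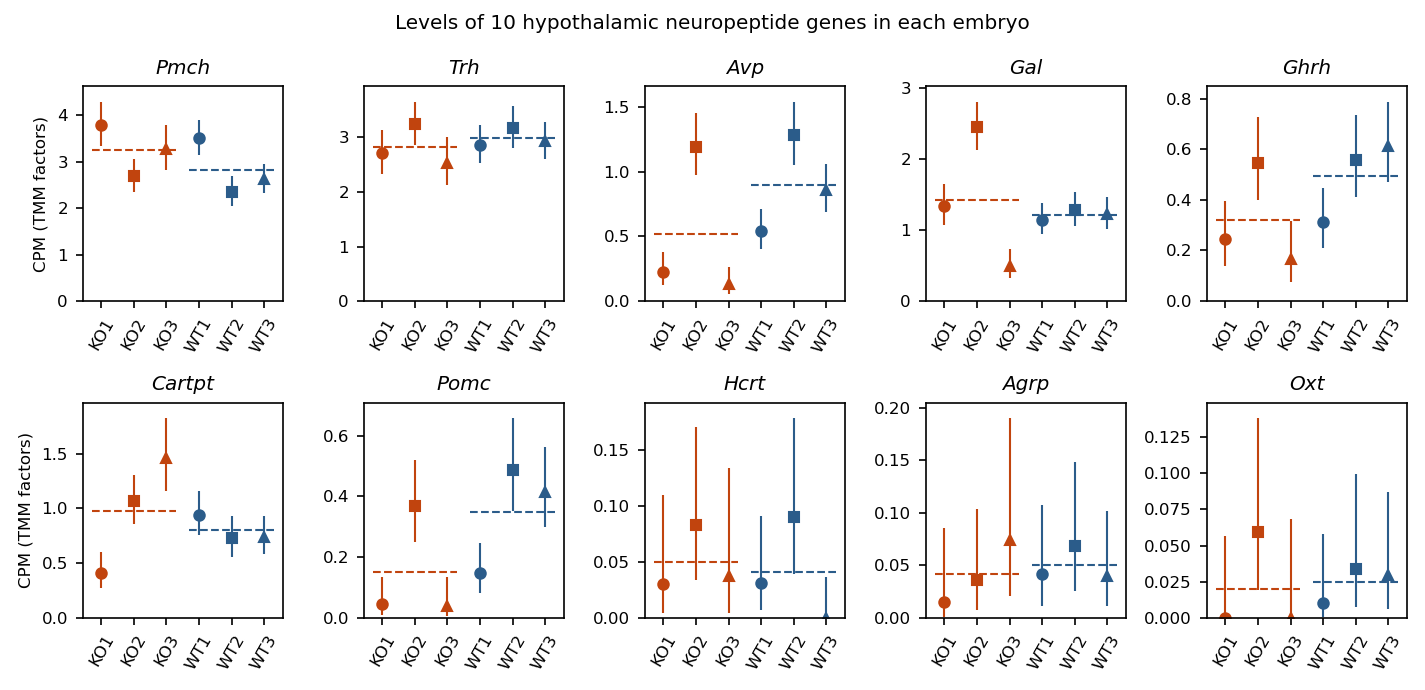
Level of each gene (CPM with TMM factors) in each embryo, with Bahd1-KO (KO) in orange and Bahd1-WT (WT) in blue, the number giving the replicate, bars for the exact 95% Poisson interval of the count, and dashed lines for the mean of 3 embryos. Trh is level over the embryos, and Pmch runs from 2.35 to 3.79 CPM with replicate 1 highest within either genotype. Avp, Pomc and Ghrh are low in Bahd1-KO replicates 1 and 3.

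Among the arcuate genes, Pomc (chr12:3954951-3960642, forward strand) had 3, 31 and 2 counts in Bahd1-KO replicates 1, 2 and 3, against 14, 43 and 42 in Bahd1-WT. In this order of replicates, which is kept below, these are levels of 0.0458, 0.367 and 0.0371 CPM, and of 0.146, 0.488 and 0.416 CPM. Pomc was thus low in Bahd1-KO replicates 1 and 3, and replicate 1 was also the lowest among the Bahd1-WT embryos. Its log2 fold change, Bahd1-KO over Bahd1-WT, was -1.18 (SE 0.963, adjusted p 0.703, edgeR). It was -0.70 (SE 0.784) without Bahd1-KO replicate 3. Leaving out Bahd1-KO replicate 2, the embryo in which Pomc was well counted, moved it to -3.06 (adjusted p 0.235 with an unadjusted p of 0.0104, edgeR). Ghrh (chr2:157329497-157347506, reverse strand) was low in the same Bahd1-KO embryos, with 16, 46 and 9 counts in Bahd1-KO embryos and, in Bahd1-WT embryos, 30, 49 and 62. Its levels were 0.244, 0.545 and 0.167 CPM, and 0.313, 0.556 and 0.614 CPM. The log2 fold change of Ghrh was -0.62 (SE 0.602, adjusted p 0.732, edgeR). It was -0.31 without Bahd1-KO replicate 3. Agrp (chr8:105566698-105637393, reverse strand) had 1, 3 and 4 counts in the Bahd1-KO brains, with 4, 6 and 4 in the Bahd1-WT brains, too few for a fold change. It shares 114 exon bases with Ctcf, on the opposite strand and at 7908 to 16984 counts, and with Gm5914, on the same strand and at 24 to 98 counts, so that even these few counts are uncertain.

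Pomc is also a hormone gene of the pituitary, and markers of that gland were counted beside it. Of 14 pituitary markers, 8 reached the count minimum, and 0 of these passed the adjusted threshold (edgeR; 0 at an unadjusted p under 0.05), with 7 below 0 and a median of -0.66. Without Bahd1-KO replicate 3, 0 passed, 1 had an unadjusted p under 0.05 and the median was -0.73. The summed level of the list was 1.20 to 8.58 CPM in Bahd1-KO and 6.42 to 9.70 CPM in Bahd1-WT. Among the hormone genes Gh had 25 counts in Bahd1-WT replicate 1 and 0 in every other embryo, Prl 0 to 13 counts, Cga 0 to 2 and Tshb 0 to 5, while Lhb had 8 to 35. Among the factors Pou1f1 had 0 to 2 counts, Lhx4 13 to 165 and Neurod4 14 to 691, and Neurod4 made up most of the summed level in the embryos other than Bahd1-KO replicate 3. Tbx19, a factor of the corticotrophs that express Pomc, had 2, 4 and 0 counts in Bahd1-KO embryos and, in Bahd1-WT embryos, 12, 7 and 13 (log2 fold change -1.95, SE 0.890, adjusted p 0.696, edgeR; -1.47 without Bahd1-KO replicate 3). It was lower in every Bahd1-KO embryo than in any Bahd1-WT embryo, as were 2.24% of all genes, and was 1 of the 8 tested markers. In one direction or the other, 6.71% of all genes did not overlap. Whether pituitary tissue took part in the Pomc counts was not tested.

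Among the magnocellular genes, Avp had 15, 101 and 7 counts in the Bahd1-KO brains, with 52, 113 and 87 in the Bahd1-WT brains. Levels were 0.229, 1.20 and 0.130 CPM, and 0.543, 1.28 and 0.861 CPM. The embryos low in Pomc were low in Avp too, and Bahd1-KO replicate 2 lay among the Bahd1-WT embryos. This gave a log2 fold change of -0.77 (SE 0.852, adjusted p 0.762, edgeR). It was -0.31 without Bahd1-KO replicate 3, while it was -2.34 (adjusted p 0.235, edgeR) when replicate 2 was left out. Oxt was nearly undetected, with 0, 5 and 0 counts in Bahd1-KO embryos and, in Bahd1-WT embryos, 1, 3 and 3. The upper limit that a count of 0 allows, taken as 3 counts, was 0.0458 CPM in Bahd1-KO replicate 1 and 0.0556 in replicate 3 (0.0563 and 0.0684 as the upper bounds of the two-sided exact 95% Poisson intervals in the plot of levels by embryo), above the mean of Bahd1-WT (0.0247), so that a difference was not detectable at this depth. Per length of exon, Oxt was at 0.0460 ± 0.0234 CPM per kb in Bahd1-WT, far below Avp at 1.55 ± 0.642 (SD, n = 3), without overlap between any embryos of that genotype. The shared run shown above removes a like part of the windows from both genes.

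Trh (chr6:92242061-92244650) varied least of the 7 better counted genes over the 6 embryos (SD of the log2 level 0.133). Counts were 178, 274 and 137 in the Bahd1-KO brains, with 274, 280 and 296 in the Bahd1-WT brains. The levels were 2.72, 3.24 and 2.54 CPM against 2.86, 3.18 and 2.93 CPM, with means of 2.83 ± 0.367 and 2.99 ± 0.165 (SD, n = 3). The highest and the lowest embryo were both Bahd1-KO, which left a log2 fold change of -0.08 (SE 0.330, adjusted p 0.940, edgeR), or -0.01 without Bahd1-KO replicate 3. Its sign turned with upper-quartile factors (0.03).

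Of the genes of the lateral hypothalamus, Pmch (chr10:88091072-88092375, forward strand) had 248, 227 and 177 counts in Bahd1-KO embryos and, in Bahd1-WT embryos, 336, 207 and 265. The levels were 3.79, 2.69 and 3.28 CPM, and 3.51, 2.35 and 2.62 CPM. Here replicate 1 was the highest embryo within either genotype, where it was among the lowest for Pomc and Avp. This gave a log2 fold change of 0.20 (SE 0.359, adjusted p 0.854, edgeR). It was 0.18 without Bahd1-KO replicate 3. Exons of Pmch overlap those of Parpbp on the opposite strand over 58.1% of their length, and Parpbp had 337 to 901 counts. By the methods of the study, counting was strand-specific. Of 224 genes whose exons lie wholly within exons of a gene on the other strand, 215 had under 10% of that gene's counts per base. Counting that drops reads over 2 genes would give low shares too, so these shares do not show that strands were kept apart. Whether Pmch lost reads over the overlap with Parpbp was not tested. Hcrt, the orexin precursor (chr11:100761069-100762931, reverse strand), had 2, 7 and 2 counts in the Bahd1-KO brains, with 3, 8 and 0 in the Bahd1-WT brains, too few for a fold change.

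Cartpt and Gal, expressed in several nuclei, differed from embryo to embryo within Bahd1-KO. Cartpt (chr13:99898489-99901091, reverse strand) had 27, 90 and 79 counts in Bahd1-KO embryos and, in Bahd1-WT embryos, 90, 64 and 75, which are 0.412, 1.07 and 1.46 CPM and 0.940, 0.726 and 0.743 CPM. The lowest and the highest embryo were both Bahd1-KO. This gave a log2 fold change of 0.29 (SE 0.542, adjusted p 0.861, edgeR). It turned to -0.11 without Bahd1-KO replicate 3. Gal (chr19:3409915-3414544, reverse strand) had 88, 207 and 27 counts in the Bahd1-KO brains, with 110, 113 and 124 in the Bahd1-WT brains. Its levels were 1.34, 2.45 and 0.5004 CPM in Bahd1-KO embryos and, in Bahd1-WT embryos, 1.15, 1.28 and 1.23 CPM. Bahd1-KO replicate 2 was above and replicate 3 below every Bahd1-WT embryo, and the Bahd1-WT embryos lay close together. The log2 fold change of Gal was 0.23 (SE 0.589, adjusted p 0.894, edgeR), -0.43 without Bahd1-KO replicate 2 and 0.64 (SE 0.335, adjusted p 0.981, edgeR) without replicate 3.

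**Figure D3:**
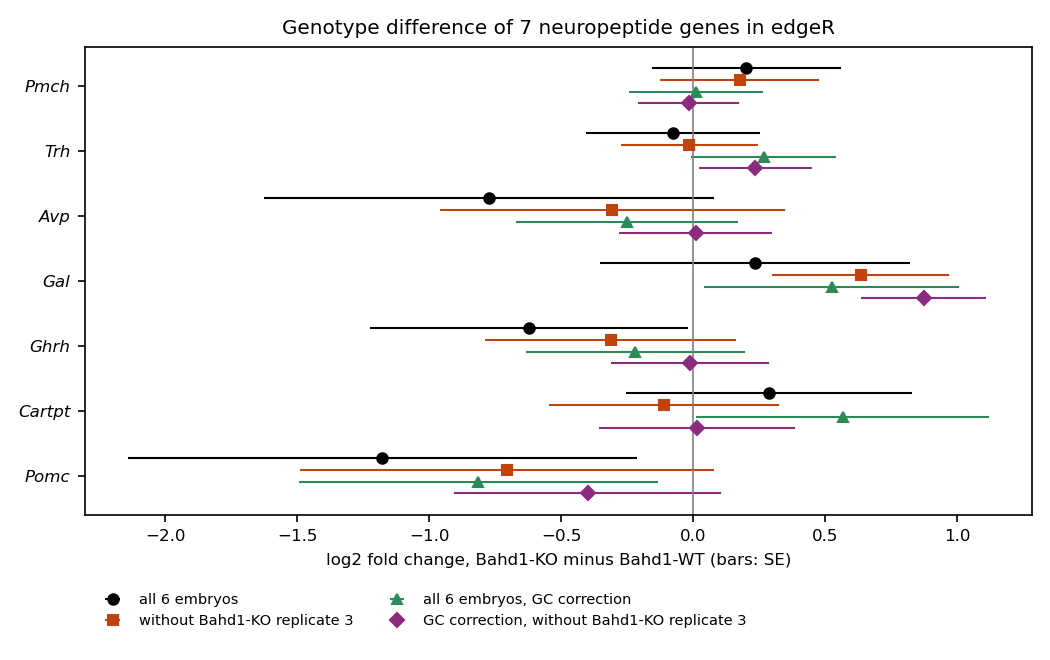
Log2 fold change (Bahd1-KO minus Bahd1-WT) of the 7 genes with at least 50 counts in sum, with bars for the SE, from edgeR with all 6 embryos, without Bahd1-KO replicate 3, and both with a correction for GC content. All 4 estimates of Pomc and Ghrh are below 0, those of Gal are above 0, and no estimate passed an adjusted p of 0.05.

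Levels of the genes were set beside the base composition of their transcripts. Of the 10 genes, 9 had more GC than the median transcript tested (48.6%), from Cartpt at 53.6% to Avp at 65.7%, which exceeds 99.6% of the genes tested. Pmch was the exception at 41.7%. The deviation of all genes from their mean, smoothed over GC content, was read at the GC content of Avp. On the log2 scale it was -0.99, 0.76 and -1.33 in the Bahd1-KO brains, with -0.22, 0.93 and 0.80 in the Bahd1-WT brains. At the GC content of Pmch it was 0.30, -0.08 and 0.07 in Bahd1-KO embryos and, in Bahd1-WT embryos, 0.17, -0.23 and -0.23. Avp was thus low where transcripts of its GC content were low, and Pmch high where those of its own were high. Subtracting this curve lowered the SD of the log2 level over the 6 embryos from 1.31 to 0.392 for Avp, from 0.741 to 0.323 for Ghrh, from 1.53 to 0.913 for Pomc and from 0.271 to 0.0764 for Pmch. The SD of Gal went from 0.726 to 0.609, while that of Trh rose from 0.133 to 0.224 and that of Cartpt from 0.613 to 0.685.

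With this correction in the edgeR fit, an alternative chosen after seeing the data, the log2 fold changes moved to -0.81 for Pomc, -0.25 for Avp, -0.22 for Ghrh, 0.27 for Trh, 0.57 for Cartpt, 0.01 for Pmch and 0.52 for Gal (adjusted p 0.735 to 0.989 over the 10 genes, edgeR). Without Bahd1-KO replicate 3 as well, Avp was at 0.01, Ghrh at -0.01 and Pomc at -0.40, and Gal at 0.87 (SE 0.237). The unadjusted p of Gal was then 0.0058 and its adjusted p 1.00 in edgeR.

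**Figure D4:**
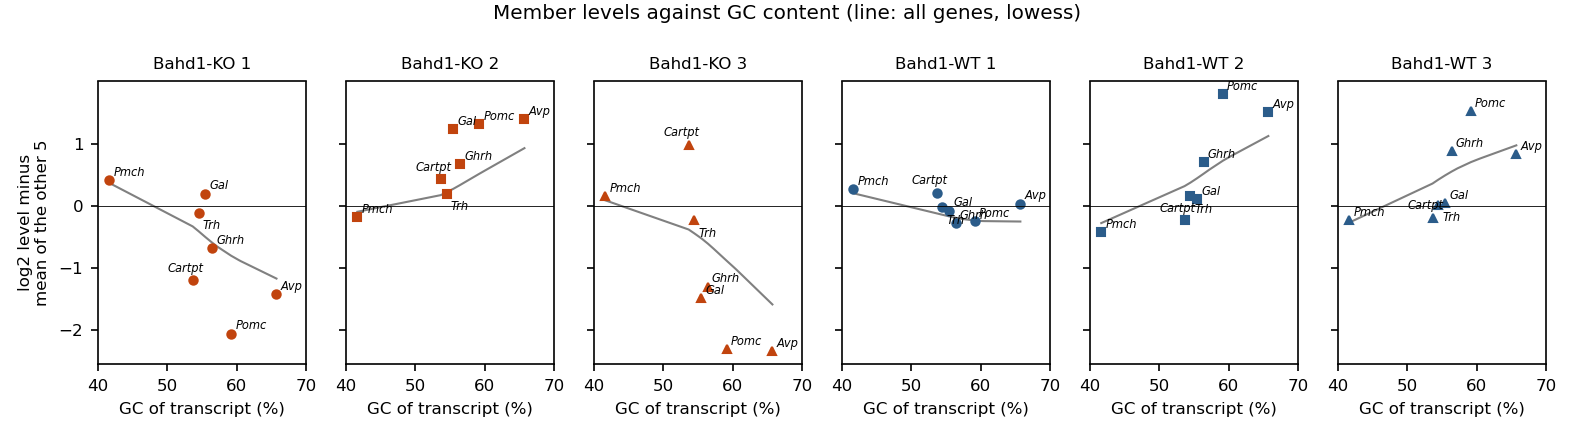
Log2 level of the 7 better counted genes in 1 embryo minus the mean of the other 5, against the GC content of the transcript, with 1 panel for each embryo and a grey line for the lowess curve of all genes read at the GC contents of the 10 genes. Avp and Pomc lie far below 0 in Bahd1-KO replicates 1 and 3 and above it in Bahd1-KO replicate 2 and Bahd1-WT replicates 2 and 3, on the same side as the line.

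In Bahd1-KO replicate 3, with TMM factors, Trh, Pmch and Cartpt stood near or above the level of the other embryos. Most transcription factors of the hypothalamus and most cerebral cortex markers were low there. Of 24 hypothalamic transcription factors, 22 stood in this embryo at 1.07 to 27.1% of the mean of the other 5, where 13.3% of all genes were under 30%. So were 6 of 7 cerebral cortex markers, whose summed level was 114 CPM against 974.9 to 1373 in the others. Otp and Sim1, which Avp, Oxt and Trh neurons need and which were chosen after their values were seen, stood at 7.71% and 7.15%. Trh was at 85.0% of the mean of the other embryos, Pmch at 110% and Cartpt at 188%, while Gal was at 33.6%, Ghrh at 36.7%, Avp at 15.8% and Pomc at 12.7%. Per total counts, without TMM factors, Trh was at 53.8%, Pmch at 69.7% and Cartpt at 119%. Gal was then at 21.2%, Ghrh at 23.1%, Avp at 9.92% and Pomc at 7.95%. Ribosomal, mitochondrial and small RNA genes made up 49.8% of this total, which lowers all other genes per total counts. With protein-coding counts as the library size, Trh was at 3.25 CPM in this embryo, against 2.95 to 3.66 in the others. Pmch was then at 4.19 CPM against 2.58 to 4.11, and Cartpt at 1.87 CPM against 0.447 to 1.20. Gal, Ghrh, Avp and Pomc were still lowest in this embryo. The lung and mature brain markers given above moved with this embryo, and their part in the levels of Trh, Pmch and Cartpt was not tested.

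Both exceptions among the 24 factors were higher in this embryo. Nkx2-1, needed for the ventral hypothalamus and also for the lung, was at 181 CPM against 13.3 to 23.5 in the others (log2 fold change 2.11, SE 0.904, adjusted p 0.696, edgeR), and Tbx3 had the highest fold change of the list (2.65, SE 1.14, adjusted p 0.696, edgeR). Without this embryo Nkx2-1 was at 0.19 and Tbx3 at -0.08. The lowest were Dlx5 (-0.85, or -0.32 without it) and Gsx1 (-0.82, or -0.25). In all, 0 of the 24 factors passed the adjusted threshold (edgeR; 0 at an unadjusted p under 0.05), 21 were below 0, and their median was -0.59, or -0.08 without Bahd1-KO replicate 3. In the 5 other embryos the summed level of the list was 771 to 854 CPM.

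**Figure D5:**
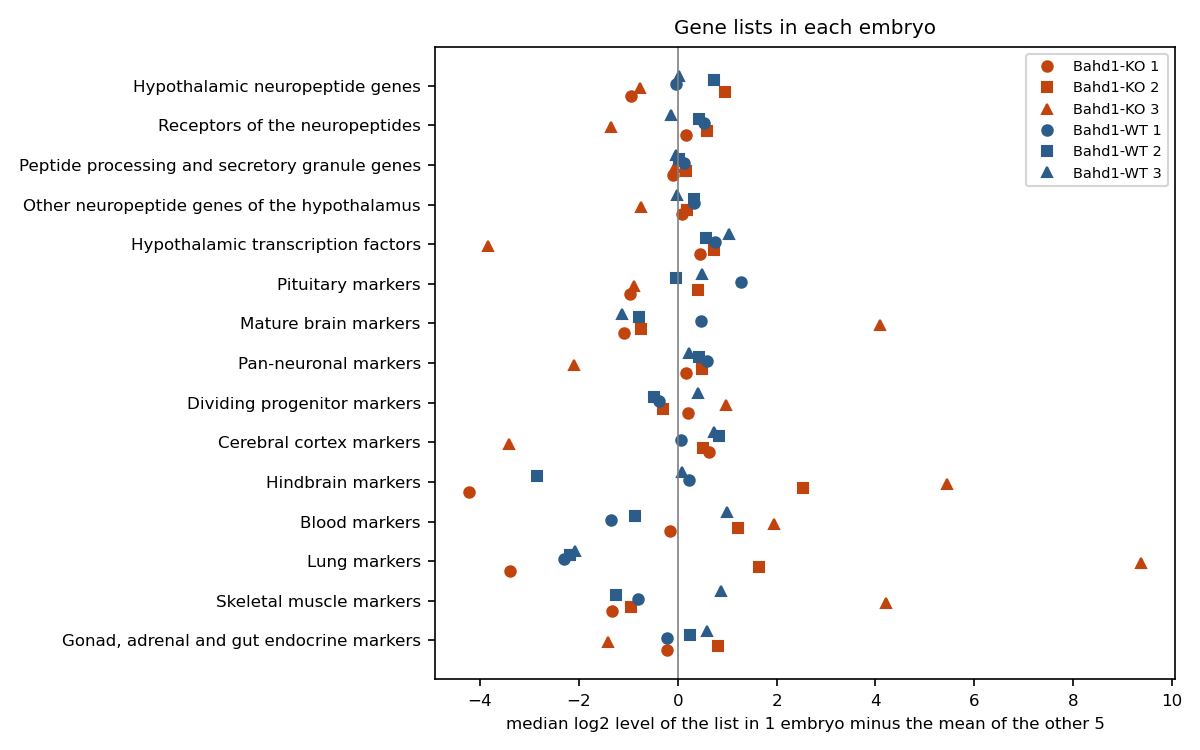
Median log2 level of each gene list in 1 embryo minus the mean of the other 5, with Bahd1-KO in orange, Bahd1-WT in blue and a marker shape for each replicate. Bahd1-KO replicate 3 lies at -3.84 for hypothalamic transcription factors, 4.08 for mature brain and 9.38 for lung, and at -0.76 for the 10 neuropeptide genes, where Bahd1-KO replicate 1 lies at -0.94. Over the 7 better counted genes alone the medians are -1.30 and -0.68, the opposite order.

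Of 16 receptor genes for these peptides, 14 were tested, 0 passed the adjusted threshold in edgeR (0 also at an unadjusted p under 0.05), 3 were above and 11 below 0, and the median log2 fold change was -0.20, or 0.01 without Bahd1-KO replicate 3. Mc4r, through which the products of Pomc and Agrp act on appetite, had levels of 8.24, 8.18 and 0.908 CPM in the Bahd1-KO brains and of 7.46 to 9.00 CPM in the Bahd1-WT brains. It was low in Bahd1-KO replicate 3 and level in the other embryos (log2 fold change -0.49, or -0.0012 without that embryo). Mc3r had 16, 21 and 5 counts in the Bahd1-KO brains, with 36, 29 and 30 in the Bahd1-WT brains, or 0.0927 to 0.249 CPM against 0.297 to 0.376. It was the single 1 of the 14 tested receptors whose genotypes did not overlap (log2 fold change -0.76, SE 0.551, adjusted p 0.696, edgeR). Of all genes, 6.71% did not overlap in one direction or the other, and 2.24% in the lower direction. Without Bahd1-KO replicate 3 its log2 fold change was -0.45 (adjusted p 0.981, edgeR).

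The oxytocin receptor Oxtr had 147 to 463 counts in each embryo. Of the orexin receptors, Hcrtr2 had 115 to 773 counts and Hcrtr1 9 to 96. Levels of other receptors were 1.32 to 4.15 CPM for Avpr1a, 3.79 to 8.73 for Trhr, 1.68 to 3.77 for Mchr1 and 0.908 to 2.001 for Galr1. Ghrhr, which acts in the pituitary, had 0 to 2 counts, and Avpr2, known from the kidney, 0 to 1.

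The genes that cut, trim and store the precursors were tested likewise. Of all 12, 0 passed the adjusted threshold in edgeR (0 at an unadjusted p under 0.05), 5 were above and 7 below 0, with a median of -0.10, or 0.02 without Bahd1-KO replicate 3. Cpe, the carboxypeptidase that trims the basic residues, was at 325 to 613 CPM, the convertase Pcsk2 at 54.5 to 87.5 and the granule protein Scg2 at 135 to 232. Each of these 3 had overlapping genotypes, and Cpe and Scg2 were lowest in Bahd1-KO replicate 3. Pcsk1, the other convertase, was at 9.62, 7.99 and 28.0 CPM in Bahd1-KO embryos and, in Bahd1-WT embryos, 10.9, 6.62 and 5.71 CPM (log2 fold change 0.97, SE 0.551, adjusted p 0.696, edgeR; 0.17 without Bahd1-KO replicate 3). Pcsk1n, an inhibitor of this convertase, had 59, 990 and 38 counts in the Bahd1-KO brains, with 207, 714 and 484 in the Bahd1-WT brains. Its embryos followed the same pattern as Avp and Pomc, low in replicates 1 and 3 of Bahd1-KO and in replicate 1 of Bahd1-WT. The Pcsk1n transcript held 57.3% GC. At a like GC content, that of Agrp (57.2%), the smoothed curve of all genes was also below 0 in these embryos (-0.56, -0.58 and -0.18).

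Other peptide genes of the hypothalamus gave a similar account. Of 22 symbols, 21 matched 1 gene each and 20 were tested. In edgeR 0 passed the adjusted threshold, 1 had an unadjusted p under 0.05, 5 were above and 15 below 0, and the median was -0.19, or -0.10 without Bahd1-KO replicate 3. The gene at an unadjusted p under 0.05 was Crh, the corticotropin-releasing hormone, with 58, 135 and 1266 counts in Bahd1-KO embryos and, in Bahd1-WT embryos, 129, 64 and 82 (log2 fold change 3.17, SE 1.23, adjusted p 0.696, edgeR). Vip was next with 5, 21 and 304 counts against 55, 15 and 22 (2.62, SE 1.47). Without Bahd1-KO replicate 3, Crh was at 0.37 and Vip turned to -0.94. Both were high in that embryo, and Vip also stood above the rest in Bahd1-WT replicate 1. Ucn3 (-0.99, or -0.89 without that embryo) and Npvf (-0.96, or -0.50) had the lowest log2 fold changes. In all 14 further lists, marker lists included, 0 genes passed the adjusted threshold (lowest adjusted p 0.696, edgeR).

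The genes whose levels over the 6 embryos were most like those of a neuropeptide gene were sought among 16585 genes with at least 10 counts in every embryo. Likeness was the root mean square difference of centred log2 levels, a description over 6 embryos whose libraries the genes share. For Trh these were Iffo2 and Dym (0.05 each), for Pmch Ythdf3 and Fbxo30 (0.04 each), for Cartpt Dusp5 (0.14) and Rarres1 (0.15), and for Gal Il11 (0.16) and Chia1 (0.19). Ythdf3, for one, was at 191, 132 and 166 CPM in the Bahd1-KO brains, with 170, 119 and 125 CPM in the Bahd1-WT brains, the same order of embryos as Pmch.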

How the data were processed

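Polyadenylated RNA of 6 embryonic brains was measured by RNA-seq. The deposited values were raw read counts per gene, with no normalization and a column for each embryo. By the methods of the study and the submitters' processing notes, the authors trimmed reads with cutadapt (1.11), aligned them to GRCm38 (STAR 2.5.0a is named in the notes, and TopHat2 also in the methods) and counted exons per gene with featureCounts (1.4.6-p3) in a strand-specific mode.

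Groups and replicate numbers came from the sample titles. Genes whose counts summed to 10 or more were tested for genotype with the quasi-likelihood test of edgeR (4.0.16; R 4.3.3) and TMM factors, two-sided, with Benjamini-Hochberg adjustment over all genes and 0.05 as the threshold. DESeq2 (1.42.0), which the study used, and voom of limma (3.58.1) were alternatives, besides other filters, normalization factors, a replicate block, each embryo left out and a GC correction, the last chosen after seeing the data. The edgeR step was also run on simulated data, with large changes placed in better counted genes only. That run does not show what could be detected for small changes, or for Agrp, Hcrt and Oxt. Levels are CPM with TMM factors, log2 levels used a prior of 0.5 counts, and Poisson intervals and floors (3 counts per library) cover counting error only. Positions, lengths, GC content (of the longest transcript) and sequences came from GENCODE M21 (GRCm38). The GC curve was a lowess fit (span 0.3) over genes with a mean of at least 50 counts. Of the 10 genes, fold changes are given for those with at least 50 counts in sum.

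The 10 genes and the 14 other gene lists were chosen with earlier results of these data known. The text names all 10 genes, Bahd1, tested receptors and processing genes, and of the other lists genes past the threshold and the 2 highest and 2 lowest fold changes. Other genes were chosen after their values were seen. Likeness was computed for genes with at least 10 counts in each embryo.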

Additional observations from a re-analysis of the deposited data

How the results depend on the processing

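None of the 10 neuropeptide genes passed the adjusted threshold in any of the 21 alternatives. The lowest adjusted p was 0.235, without Bahd1-KO replicate 2. An unadjusted p under 0.05 was reached by 1 gene with voom and embryo quality weights (Pomc, 0.0394), by 2 without Bahd1-KO replicate 2 and by 1 with the GC correction and Bahd1-KO replicate 3 left out. Pomc and Ghrh kept their sign in every alternative that tested them. Reversed signs were Cartpt with voom (-0.23), without Bahd1-KO replicate 3 in DESeq2 (-0.12) or beside the replicate block (-0.28), Trh with upper-quartile factors (0.026) and with the GC correction (0.27, and 0.24 without Bahd1-KO replicate 3), Avp (0.0097) and Pmch (-0.017) with the GC correction without that embryo, and Gal with the replicate block (-0.017). The cause was not tested. With one embryo left out at a time, log2 fold changes ran from -3.06 to -0.70 for Pomc, -1.29 to -0.31 for Ghrh, -2.34 to -0.31 for Avp, -0.22 to -0.01 for Trh, 0.07 to 0.35 for Pmch, -0.11 to 0.66 for Cartpt and -0.43 to 0.64 for Gal. The Bahd1 log2 fold change (-8.40, adjusted p 0.0462, edgeR) was past the threshold in the main test and not with ribosomal, mitochondrial and small RNA genes left out (-8.41, adjusted p 0.0542) or with the replicate block (-8.49, adjusted p 0.229). Leaving out one embryo gave -8.78 to -8.01, past the threshold only without Bahd1-KO replicate 3. Without Bahd1-KO replicate 3, the replicate block called 2 blood and 1 lung marker, where 0 were called otherwise in these lists, and it changed no other call. Deviations of embryos with equal replicate numbers had correlations of 0.12, 0.18 and -0.09, within the -0.36 to 0.25 of unequal numbers. These few correlations show no pairing by number, but they cannot tell whether embryos shared a litter or batch. The order of levels per length was the same with the longest transcript as the length. Agrp, Oxt and Hcrt had 12 to 22 counts in sum, which limits any statement on them, and 3 of the 10 genes fell out of the edgeR filter filterByExpr.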
